A study of Mus musculus with 6 samples.

Results

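The genes described here are 10 transcripts of leukocyte adhesion: the integrin chains Itgal, Itgam, Itgb2, Itga4, Itgb1 and Itgb7, and the endothelial partners Icam1, Vcam1, Sele and Selp. They were taken by name from a table of 55298 genes measured in 6 samples, and all 10 were among the 18161 genes tested. The cells were captured from mouse brain by beads carrying an antibody to O4, a surface lipid of the oligodendrocyte lineage, and were not cultured. All mice carried the strain label c56Bl/6j. One group (EAE) was immunised with MOG 35-55 peptide, a piece of a myelin protein that induces experimental autoimmune encephalomyelitis, a mouse model of multiple sclerosis, and gave 3 samples of 2 mice each. The control group (OVA) received ovalbumin and gave 3 samples, of which replicate 2 pooled 2 mice and replicates 1 and 3 held 1 mouse each. Both were taken at the height of disease, and no genetic change, age, sex or batch is stated in the labels. Each value is a regularised logarithm (rlog) of scaled read counts in log2 units, where 1 unit is a 2-fold step, and the authors' transformation shrinks the values of weakly expressed genes. Read depth is unknown.

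Integrins are pairs of an alpha and a beta chain that hold a cell to its surroundings or to another cell. On leukocytes, Itgal with Itgb2 forms LFA-1 and Itgam with Itgb2 forms Mac-1, both of which bind ICAM-1, while Itga4 with Itgb1 forms VLA-4, which binds VCAM-1, and Itga4 with Itgb7 forms the receptor of MAdCAM-1. E-selectin (Sele) and P-selectin (Selp) on activated endothelium slow passing leukocytes before integrins arrest them, and antibodies to the alpha 4 chain are used against multiple sclerosis because they keep lymphocytes out of the brain.

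The captured material held more than the labelled cell type. The mean over 9 oligodendrocyte markers lay between 15.03 and 15.73 in the 6 samples, but 13 endothelial markers averaged 11.58 to 12.79 and 6 pan-leukocyte markers 10.85 to 11.68, so transcripts of the cells that usually carry these adhesion molecules were present in both groups. OVA replicate 3 stood apart from the rest. It had the lowest value of all samples for 9 of 9 oligodendrocyte markers, the highest for 13 of 13 endothelial and 5 of 5 B cell markers, and a neutrophil marker mean of 10.61 against 8.31 to 8.79 elsewhere. The members' differences are therefore also given without it. Xist, transcribed from the inactive X chromosome of females, stood at 13.50 to 14.16 in EAE and 7.39 to 7.63 in OVA, and the Y-linked Ddx3y at 9.44 to 10.18 against 11.29 to 11.46. The Y-linked transcript was thus still present in every EAE pool, and the sex of each mouse is not known. Treatment and the sex make-up of the samples therefore cannot be told apart in any comparison below.

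The comparison of EAE with OVA asks whether transcripts of the adhesion machinery differed between the groups. None of the 10 genes passed the limma test at an adjusted p under 0.05, the threshold used throughout, in either direction. Over all genes tested, 1.72% were called higher in EAE and 0.666% lower. At an unadjusted limma p under 0.05, 4 members were higher (Itgal, Itgam, Itgb2 and Itgb7) and 1 was lower (Vcam1), where 9.17% and 7.15% of all genes did so. The groups did not overlap for Itgam, Itgb2 and Itgb7, all higher in EAE, as was the case for 12.1% of all genes in that direction, and no member lay wholly lower, against 10.8%. The median difference over the 10 was 0.24, with a range from -0.52 for Vcam1 to 1.34 for Itgb2, beside a median of 0.00 for all tested genes. Without OVA replicate 3, the sample that stood apart, 4 members were called higher (Itgal, Itgam, Itgb2 and Itgb7) and none lower, while 4.68% of all genes were called higher and 1.91% lower. Weighting samples by their number of mice called Itgb2 and Itgb7 higher (2.43% of all genes higher, 0.947% lower). In bulk samples such as these, more cells of a type and more RNA per cell cannot be told apart.

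**Figure D1:**
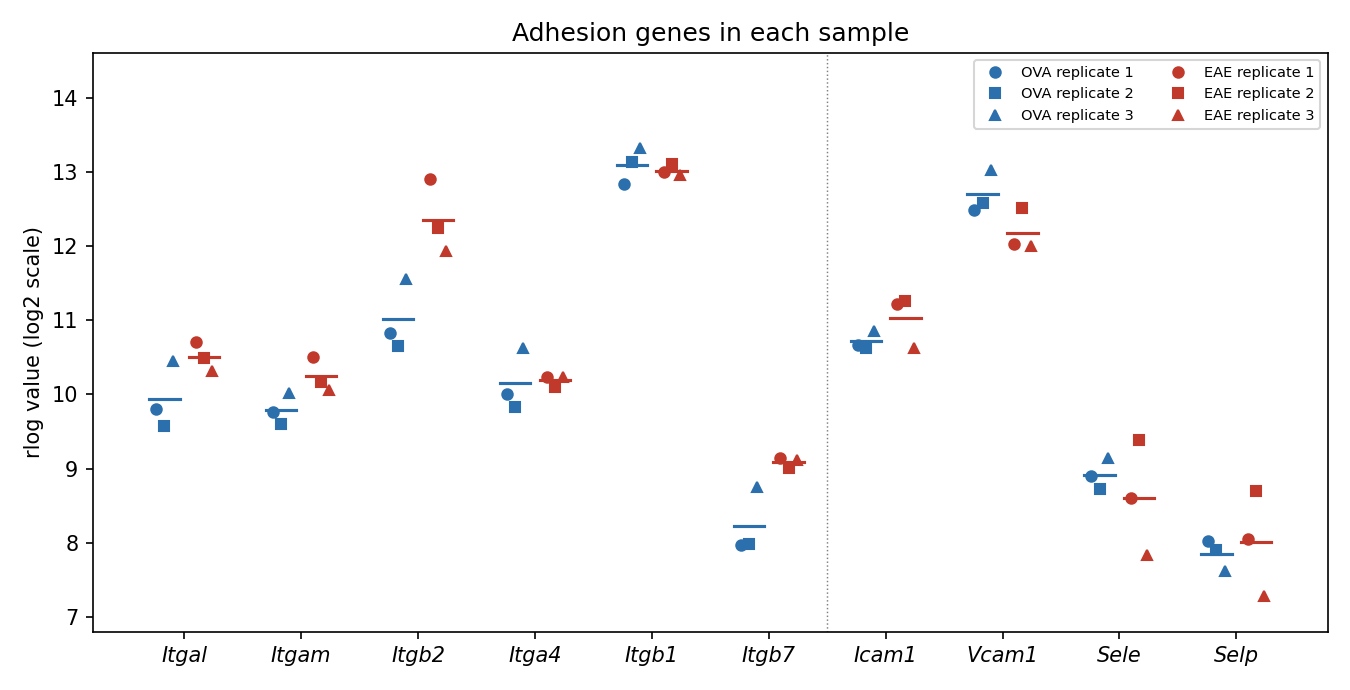
Each point is the rlog value (log2 scale) of a gene in 1 sample, blue for OVA and red for EAE, with the replicate number as symbol and the group mean as a bar; integrin chains are left of the dotted line and endothelial molecules right of it. Itgb2 lies at 11.93 to 12.90 in EAE and 10.65 to 11.56 in OVA, while Sele and Selp are spread most widely among the EAE pools.

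Itgb2 (ENSMUSG00000000290.13, chromosome 10, 77530252 to 77565708, plus strand, GENCODE M21 on GRCm38), the common beta chain of LFA-1 and Mac-1, showed the largest difference of the 10. Its rlog values were 12.90, 12.24 and 11.93 in EAE replicates 1 to 3 and 10.83, 10.65 and 11.56 in OVA replicates 1 to 3. Every EAE pool lay above every OVA sample, with OVA replicate 3 nearest to the EAE range. The difference was 1.34 ± 0.30 (SE) on the log2 scale, or 2.54-fold, with a 95% interval from 0.66 to 2.03 (limma adjusted p = 0.068). Without OVA replicate 3 it was 1.62 and passed the test (limma adjusted p = 0.012), and with any other sample left out it lay between 1.08 and 1.56 and did not pass.

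Itgal (ENSMUSG00000030830.18, chromosome 7, 127296260 to 127335138), the alpha chain of LFA-1, stood at 10.70, 10.49 and 10.31 in EAE and 9.81, 9.57 and 10.45 in OVA. OVA replicate 3 fell inside the EAE range, and the other OVA samples lay below it. The difference was 0.55 ± 0.22 (SE; limma adjusted p = 0.26). Itgam (ENSMUSG00000030786.18, chromosome 7, 128062640 to 128118491), the alpha chain of Mac-1 and a marker of myeloid cells including microglia, stood at 10.50, 10.17 and 10.06 in EAE and 9.76, 9.60 and 10.02 in OVA. The groups were separated by only a narrow gap, between EAE replicate 3 and OVA replicate 3. Its difference was 0.45 ± 0.15 (SE; limma adjusted p = 0.18). Without OVA replicate 3 the differences of Itgal and Itgam were 0.81 and 0.56, and both passed (limma adjusted p = 0.015 and 0.049).

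Itgb7 (ENSMUSG00000001281.10, chromosome 15, 102215995 to 102231944, minus strand), the beta chain that pairs with alpha 4 on gut-homing lymphocytes and with alpha E, was at 9.14, 9.01 and 9.12 in EAE and 7.97, 7.98 and 8.75 in OVA. The EAE pools were close together and above all OVA samples, whose replicates 1 and 2 were likewise close. The difference was 0.86 ± 0.21 (SE), 1.82-fold, with a 95% interval from 0.38 to 1.34 (limma adjusted p = 0.085), and without OVA replicate 3 it was 1.12 (limma adjusted p = 0.0014).

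The chains of VLA-4 differed little. Itga4 (ENSMUSG00000027009.18, chromosome 2, 79255426 to 79333123), the alpha chain that the therapeutic antibodies bind, stood at 10.23, 10.10 and 10.24 in EAE and 10.01, 9.83 and 10.62 in OVA. All EAE pools lay between the OVA samples. The difference was 0.03 ± 0.19 (SE), and its 95% interval from -0.41 to 0.47 leaves room for a change of either sign (limma adjusted p = 0.96). Itgb1 (ENSMUSG00000025809.15, chromosome 8, 128685654 to 128733200), a beta chain found on nearly all cell types, stood at 12.99, 13.10 and 12.96 in EAE and 12.84, 13.13 and 13.32 in OVA. The EAE pools again lay within the OVA range, with a difference of -0.08 ± 0.13 (SE), a 95% interval from -0.38 to 0.21 and a limma adjusted p of 0.80. Without OVA replicate 3, Itga4 differed by 0.26 and Itgb1 by 0.03, and neither passed (limma adjusted p = 0.12 and 0.89).

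**Figure D2:**
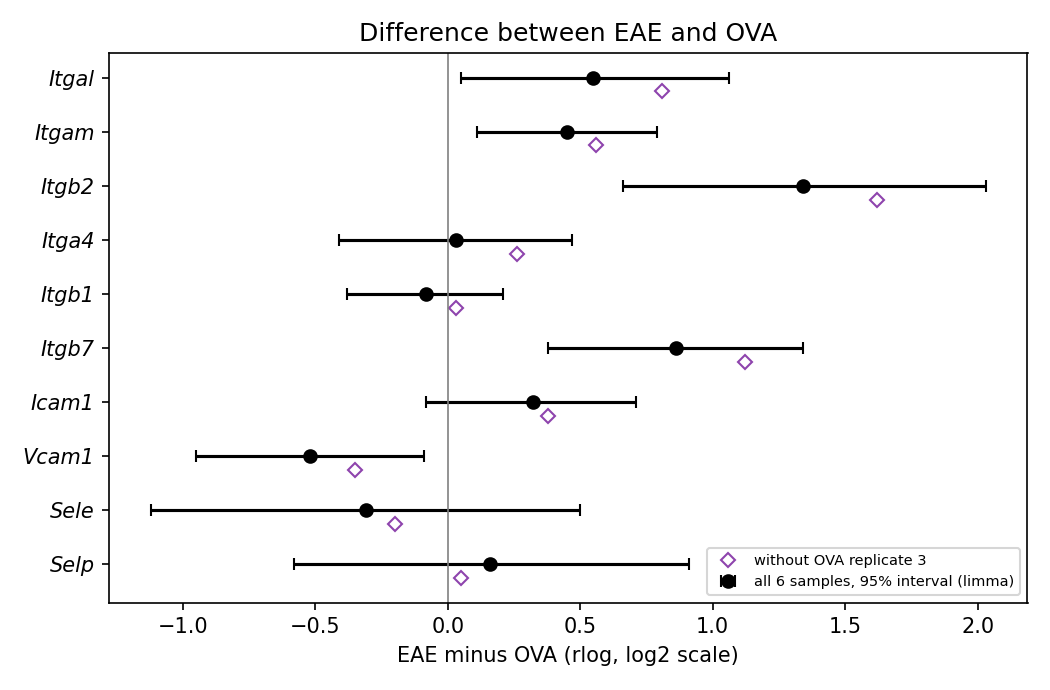
Black points are EAE minus OVA differences (rlog, log2 scale) from limma over all 6 samples with their 95% intervals, and open diamonds are the differences without OVA replicate 3. The intervals of Itgal, Itgam, Itgb2 and Itgb7 lie above 0 and that of Vcam1 below, before adjustment over all genes; leaving out the sample moves Itgb2 from 1.34 to 1.62 and Itgb7 from 0.86 to 1.12.

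Among the endothelial partners, Icam1 was higher on average in EAE and Vcam1 lower, neither past the test. Icam1 (ENSMUSG00000037405.8, chromosome 9, 21015985 to 21028817), the ligand of LFA-1 and Mac-1, stood at 11.22, 11.26 and 10.62 in EAE and 10.67, 10.63 and 10.85 in OVA. EAE replicates 1 and 2 were above every OVA sample, while EAE replicate 3 had the lowest value of the 6, at 10.623 beside 10.630 in OVA replicate 2. The difference was 0.32 ± 0.17 (SE), with a 95% interval from -0.08 to 0.71 (limma adjusted p = 0.40). Single samples moved it by over 1.5 times in one direction or the other: it was 0.52 without EAE replicate 3 and 0.20 without EAE replicate 2 (limma adjusted p = 0.061 and 0.71). It was 0.38 without OVA replicate 3 (limma adjusted p = 0.25). Vcam1 (ENSMUSG00000027962.14, chromosome 3, 116109949 to 116129688, minus strand), the ligand of VLA-4, stood at 12.018, 12.508 and 12.004 in EAE and 12.481, 12.580 and 13.032 in OVA. EAE replicate 2 lay just inside the OVA range and the other EAE pools lay below it. The difference was -0.52 ± 0.18 (SE), 1.43-fold lower in EAE, with a 95% interval from -0.95 to -0.09 (limma adjusted p = 0.22), and it was -0.35 without OVA replicate 3 (limma adjusted p = 0.21).

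The selectins varied most among the EAE pools. Sele (ENSMUSG00000026582.6, chromosome 1, 164048234 to 164057677) stood at 8.61, 9.39 and 7.83 in EAE and 8.90, 8.72 and 9.14 in OVA. Selp (ENSMUSG00000026580.16, chromosome 1, 164115264 to 164150026), which platelets also carry, stood at 8.05, 8.70 and 7.29 in EAE and 8.03, 7.90 and 7.62 in OVA. For both genes EAE replicate 2 was the highest and EAE replicate 3 the lowest of all 6 samples, so the EAE values spanned the whole OVA range. The EAE pools covered 1.56 for Sele and 1.41 for Selp on the log2 scale, against 0.42 and 0.41 in OVA. The differences between groups were -0.31 ± 0.35 and 0.16 ± 0.32 (SE; limma adjusted p = 0.71 and 0.85). Their 95% intervals ran from -1.12 to 0.50 and from -0.58 to 0.91, so a 2-fold decrease of Sele lies within its interval. Without EAE replicate 3 they were 0.08 for Sele, a change of sign, and 0.52 for Selp (limma adjusted p = 0.93 and 0.41). Without EAE replicate 2 they were -0.70 for Sele and -0.18 for Selp, a change of sign of the latter (limma adjusted p = 0.33 and 0.83), and without OVA replicate 3 they were -0.20 and 0.05 (limma adjusted p = 0.79 and 0.95). A mean over 7 platelet markers lay at 3.40 to 3.43 in EAE and 3.43 to 3.77 in OVA, and its part in the Selp values was not tested.

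The 3 endothelial members with a RefSeq promoter (GRCm38.p6) are shown because inflammatory cytokines are known to act on these genes through NF-kappaB. Whether it acted in these samples was not tested. The sequences are the 250 bases before the RefSeq start, 5′ to 3′ on the gene's strand, which is the plus strand for all 3. Capitals mark GGAAATTCC, read on both strands and chosen after the sequences were seen, as the letters of the described NF-kappaB site of Icam1.
Icam1 chr9:21015690-21015939: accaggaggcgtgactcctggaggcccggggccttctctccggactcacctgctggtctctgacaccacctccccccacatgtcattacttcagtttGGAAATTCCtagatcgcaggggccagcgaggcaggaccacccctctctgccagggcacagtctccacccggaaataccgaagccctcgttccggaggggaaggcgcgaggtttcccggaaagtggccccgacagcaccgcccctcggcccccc
Sele chr1:164047984-164048233: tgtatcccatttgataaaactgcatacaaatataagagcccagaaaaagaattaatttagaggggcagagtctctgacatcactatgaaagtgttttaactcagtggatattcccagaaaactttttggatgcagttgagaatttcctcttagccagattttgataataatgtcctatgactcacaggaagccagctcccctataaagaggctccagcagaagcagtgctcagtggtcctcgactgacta
Selp chr1:164115014-164115263: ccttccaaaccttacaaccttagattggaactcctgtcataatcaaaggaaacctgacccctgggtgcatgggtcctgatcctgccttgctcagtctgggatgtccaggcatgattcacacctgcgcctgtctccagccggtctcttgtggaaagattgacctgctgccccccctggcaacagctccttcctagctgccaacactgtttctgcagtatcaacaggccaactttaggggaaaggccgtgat
In Icam1 the 9 letters begin 153 bases before the start, and 0.286% of 32851 promoter windows of the same length hold them on either strand. Their presence in Icam1 follows from how they were chosen, and they were not in the Sele and Selp windows. The kappaB consensus of 10 letters, GGRRNNYYCC (R is A or G, Y is C or T, N is any base), was searched on both strands. It had no match in these 3 windows or in those of Itgam, Itga4, Itgb1 and Itgb7, and 9.55% of all windows had one. Near matches were not counted or marked, such as ggatattccc in Sele, where only a T in place of R departs from the pattern. The search therefore does not show that Sele lacks a kappaB site. Itgal, Itgb2 and Vcam1 had no entry in the promoter table. A match or its lack describes these letters alone.

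The distance between genes that work as partners was also compared. Within each sample the value of one gene was subtracted from that of its partner for 9 pairs, and the groups were compared by an exact two-sided permutation test over samples, whose smallest possible p is 0.1 with 3 against 3. No pair can therefore pass a threshold of 0.05. Itgal lay below Itgb2 by -2.19, -1.75 and -1.63 in EAE and by -1.01, -1.08 and -1.11 in OVA, so that the gap between the alpha and the beta chain was wider in every EAE pool, by -0.79 on average (exact permutation p = 0.1, adjusted over the 9 pairs 0.129). The gap of Itgam to Itgb2 was likewise wider in every EAE pool, with a mean of -2.11 against -1.22 in OVA (exact p = 0.1, adjusted 0.129). Itgal minus Itgam overlapped between groups, with a difference of 0.10 (exact p = 0.5, adjusted 0.562).

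Alpha 4 has a choice of beta chains. Itga4 exceeded Itgb7 by 1.09, 1.09 and 1.11 in EAE and by 2.05, 1.86 and 1.87 in OVA (difference -0.83, exact p = 0.1, adjusted 0.129). The EAE pools were nearly equal in this ratio, and every one lay below the OVA samples. Itgb7 minus Itgb1 was higher in every EAE pool by a mean of 0.94, whereas Itga4 minus Itgb1 overlapped between groups (difference 0.11, exact p = 0.7, adjusted 0.7). Icam1 minus Vcam1 was -0.80, -1.25 and -1.38 in EAE and -1.81, -1.95 and -2.18 in OVA, a shift of 0.84 towards Icam1 in which all EAE pools, replicate 3 included, lay above all OVA samples. Icam1 minus Icam2, another LFA-1 ligand present on resting endothelium, shifted by 0.83 without overlap. Sele minus Selp was lower in every EAE pool by a mean of -0.47, and its OVA values of 0.87, 0.82 and 1.52 were led by OVA replicate 3, without which the shift was -0.25. Without OVA replicate 3, Itgal minus Itgb2 shifted by -0.81, Itga4 minus Itgb7 by -0.86 and Icam1 minus Vcam1 by 0.74. Each of the shifts of Itgb7 minus Itgb1, Icam1 minus Vcam1, Icam1 minus Icam2 and Sele minus Selp with all samples had an exact p of 0.1, adjusted 0.129. The values are those of the transcripts and say nothing of the proteins on any cell.

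**Figure D3:**
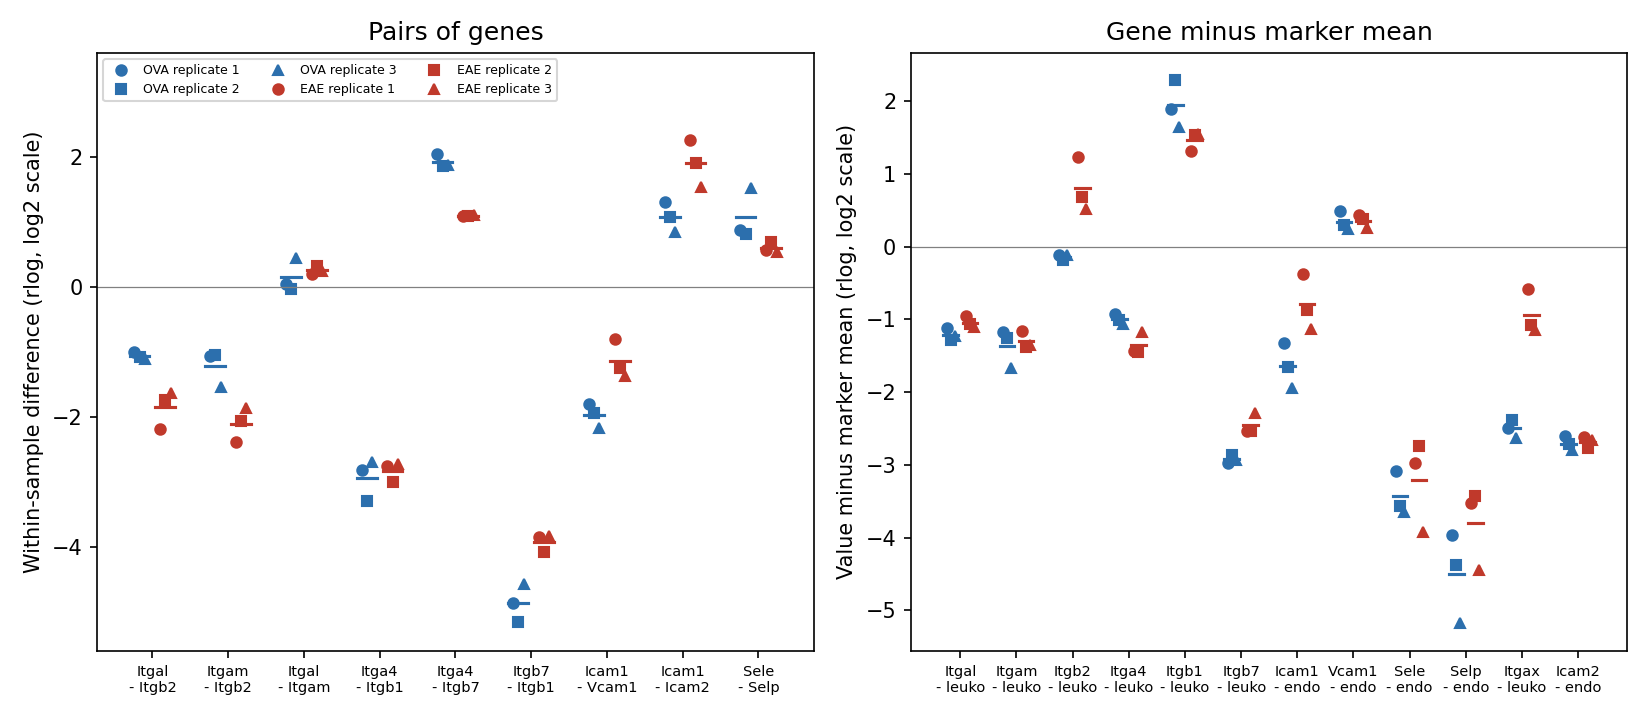
Left, the rlog value of a gene minus that of its partner in the same sample (log2 scale); right, the rlog value minus the mean of 6 pan-leukocyte markers (leuko) or 13 endothelial markers (endo), with symbols as in the plot of values by sample and group means as bars. Icam1 minus Vcam1 is -0.80 to -1.38 in EAE and -1.81 to -2.18 in OVA, and Vcam1 minus the endothelial mean is 0.26 to 0.44 and 0.24 to 0.49.

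The endothelial markers were all lower in EAE on average (median difference -0.55, 0 of 13 past the test and 8 at an unadjusted p under 0.05). The members and 2 other genes were set against a marker mean in the same sample, in 12 comparisons of which those with an exact permutation p of 0.1 had an adjusted p of 0.171. Relative to the endothelial mean, Vcam1 stood at 0.44, 0.38 and 0.26 in EAE and 0.49, 0.30 and 0.24 in OVA. The groups overlapped fully on this scale, and the difference was 0.01 in place of -0.52 (exact permutation p = 0.9). Icam2 behaved alike, with a difference of 0.02 (exact p = 0.8). Icam1 stood at -0.37, -0.87 and -1.13 in EAE and -1.32, -1.65 and -1.95 in OVA relative to that mean, every EAE pool above every OVA sample, with a difference of 0.85 (exact p = 0.1, the smallest possible). Sele differed by 0.23 and Selp by 0.70 with overlap (exact p = 0.7 and 0.3). In a limma fit of all genes on this scale, in which the median of all genes was 0.53, 3 members were higher in EAE, namely Itgal, Itgb2 and Itgb7, with 3.7% of all genes called higher and 0.022% lower. The same 3 genes were called on this scale without OVA replicate 3, in an alternative chosen after seeing the data (3.16% of all genes higher, 0.0165% lower). Icam1 was not called on the endothelial scale with all samples (0.85, limma adjusted p = 0.13) or without OVA replicate 3 (0.70, limma adjusted p = 0.25). On the scale of the pan-leukocyte markers Icam1 differed by -0.07 (limma adjusted p = 0.85), where the median of all genes was -0.39. Whether the endothelial molecules were made by endothelium is not known from bulk RNA, since astrocytes and phagocytes can also express Icam1 and Vcam1. Of 8 astrocyte markers, 5 were called lower and 1, Gfap, higher by 1.35 (median difference -0.86), with no overlap between groups for any of the 8. Over all genes, 0.666% were called lower and 1.72% higher, and 10.8% and 12.1% did not overlap in these directions. The mean of the astrocyte list was 12.25 to 12.52 in EAE and 12.83 to 13.15 in OVA. Its part in the Icam1 and Vcam1 values was not tested.

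The integrin chains were set against 6 pan-leukocyte markers, of which all 6 lay above 0 (median difference 0.35) and 0 passed the test, 4 with an unadjusted p under 0.05. Their mean was 11.67, 11.55 and 11.42 in EAE and 10.94, 10.85 and 11.68 in OVA, so that OVA replicate 3 was as high as the EAE pools. Relative to that mean, Itgb2 stood at 1.23, 0.69 and 0.52 in EAE and -0.11, -0.19 and -0.12 in OVA. The 3 OVA samples then lay within a narrow range, and OVA replicate 3 no longer stood apart. The difference was 0.96, and that of Itgb7 was 0.47, both without overlap (exact permutation p = 0.1). Itgal differed by 0.16 without overlap and Itgam by 0.06 with overlap (exact p = 0.1 and 0.8). Itga4 and Itgb1 were lower relative to the leukocyte markers in every EAE pool, by -0.36 and -0.47 (exact p = 0.1). In the limma fit of all genes on this scale, whose median was -0.39, no member was called (0.452% of all genes higher, 0.639% lower), with Itgb2 at an adjusted p of 0.17. Markers of particular leukocytes differed in direction. All 10 T cell markers lay above 0 and 6 were called higher, beside 1.72% of all genes. Their list mean was 5.61 to 5.73 in EAE and 5.03 to 5.21 in OVA. Of 10 monocyte and macrophage markers, 8 lay above 0 and none of the 10 passed in limma. At an unadjusted limma p under 0.05 there were 6 of the 10, among them Mrc1 (-0.52) and Cd163 (-0.40), which were lower in EAE. The mean of this list overlapped, at 9.78 to 10.18 in EAE and 9.01 to 10.21 in OVA, highest in OVA replicate 3. All 5 B cell markers and 5 of 7 neutrophil markers lay below 0 (list median -0.49 and -0.81), and OVA replicate 3 was the highest sample for these 5 of each list. Without that sample the differences of these B cell markers ran from -0.11 to 0.15, and those of these neutrophil markers from -0.38 to 0.29. No gene of either list passed the limma test. At an unadjusted limma p under 0.05 there were 0 B cell markers and 1 neutrophil marker, Csf3r, which was higher in EAE by 0.36. The 8 microglia markers lay below 0, with 2 called lower (0.666% of all genes) and a mean of 10.53 to 10.96 against 11.12 to 11.41. Their part in the integrin values was not tested.

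Levels of different genes were compared after division by exon length (rlog minus log2 of the exon length in kilobases, GENCODE M21). In OVA the order from high to low was Itgb1 (11.07), Vcam1 (9.55), Itgb2 (9.40), Icam1 (8.59), Itgam (7.46), Sele (7.38), Itgal (7.23), Itgb7 (6.76), Itga4 (6.35) and Selp (5.71). The ranges of Vcam1 and Itgb2 overlapped, as did those of Itgam with Sele, Sele with Itgal, Itgal with Itgb7 and Itgb7 with Itga4. In EAE, Itgb2 came second at 10.75, above Vcam1 (9.03) and Icam1 (8.91), which overlapped with each other, and its samples at 10.32 to 11.29 overlapped with those of Itgb1 at 10.93 to 11.07. The beta 2 chain thus stood above its alpha chains Itgam (7.92) and Itgal (7.78) on this scale, and Itgb7 (7.62) was above Sele (7.07) and Itga4 (6.38), with the mean of Selp again the lowest (5.87). The range of Sele in EAE, 6.29 to 7.85, overlapped with those of Itgam, Itgal, Itgb7 and Itga4 beside it in that order and with that of Selp, 5.15 to 6.56, which also overlapped with Itga4 at 6.29 to 6.43.

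The genes whose profile over the 6 samples was nearest to that of each member were found by the root-mean-square difference of values centred on each gene's mean, among 15311 other tested genes, those with a matched symbol that does not start with Gm and a digit or end in Rik. Nearest to Itgb2 were Il7r (0.080) and Hk3 (0.103), nearest to Itgal were Syk (0.065) and Jaml (0.070), and nearest to Itgam were Nuak2 (0.044) and Cndp2 (0.055). Itgb7 was nearest to Tent5c (0.072) and Glipr1 (0.098), Itga4 to Cdc20 (0.042) and Pbk (0.045), and Itgb1 to Bloc1s6 (0.021) and Zcchc10 (0.023). Vcam1 was nearest to Robo4 (0.023), a receptor of endothelial cells, and to the amino acid transporter Slc7a5 (0.044). Icam1 was nearest to C1rl (0.041) and Tnfrsf26 (0.069). Sele and Selp had no near neighbour of that closeness, with Rnd1 (0.234) and Ccn1 (0.238) for Sele and Zbtb16 (0.131) and Steap4 (0.218) for Selp. Among the members themselves Itgal and Itgam were the closest pair (0.157).

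Related genes were read from lists in the same fit. Of 20 other integrin chains, 2 were called higher and 1 lower, with a median of -0.08. Itgax, the alpha X chain of dendritic cells and activated microglia that also pairs with Itgb2, stood at 11.09, 10.47 and 10.27 in EAE and 8.45, 8.46 and 9.06 in OVA. All EAE pools were well above the OVA samples, and the rise was 1.95 ± 0.24 (SE), 3.87-fold (limma adjusted p = 0.012). Relative to the leukocyte markers it was 1.56 higher (limma adjusted p = 0.0002), without overlap. The exact permutation test of the same values gave Itgax a p of 0.1, the smallest possible (adjusted 0.171). Itgae, the alpha E chain that pairs with Itgb7, rose 1.92-fold (limma adjusted p = 0.023), from 5.90 to 6.27 in OVA to 6.86 to 7.24 in EAE, and relative to the leukocyte markers it was 0.55 higher and did not pass (limma adjusted p = 0.42). Itga7, a laminin-binding chain, fell by 0.52 in log2 units (limma adjusted p = 0.031). It stood at 0.02 relative to the endothelial markers, where the median of all genes was 0.53, and at -0.91 relative to the leukocyte markers (limma adjusted p = 0.96 and 0.17). Its OVA values were 11.12, 10.96 and 10.92 in replicates 1 to 3, where the endothelial marker mean was 11.99, 12.28 and 12.79. Itgav, an alpha chain of many cell types, differed by -0.11 (limma adjusted p = 0.57). Without EAE replicate 2, OVA replicate 1 or OVA replicate 2, Itgax missed the threshold (adjusted p of at most 0.069), and Itgae and Itga7 passed only with OVA replicate 3 left out (0.11 and 0.12 at most).

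Of 17 other endothelial and junctional adhesion partners tested, 1 was called higher and none lower (8 at an unadjusted limma p under 0.05; 8 called lower with array quality weights, by which 15.7% of all genes were called higher and 12.3% lower), with a median of -0.16. The one was Spp1, osteopontin, a secreted integrin ligand of activated phagocytes, which rose 5.51-fold (limma adjusted p = 0.030), at 12.65, 11.32 and 11.78 in EAE and 9.40, 8.78 and 10.18 in OVA. Icam2 differed by -0.51 ± 0.17 (SE; limma adjusted p = 0.20). Madcam1, the ligand of alpha 4 beta 7 on gut vessels, was low in every sample, at 2.90 to 3.12, where a mean of 3 was the least for testing. Of 12 selectin ligand genes 0 passed in limma, 3 with an unadjusted p under 0.05, and 5 were called higher and 2 lower with array quality weights. Selplg, which encodes the P-selectin ligand PSGL-1, differed by -0.20, the hyaluronan receptor Cd44 by 0.98 and the sialyltransferase St3gal3 by 0.34 (limma adjusted p = 0.33, 0.16 and 0.096).

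Of 17 genes that switch integrins to the binding state from inside the cell, 2 were called higher and 1 lower, with a median of 0.09. The adaptor Fyb rose by 0.49 in log2 units (limma adjusted p = 0.031) and the exchange factor Vav1 by 0.70 (0.039), while Vcl, vinculin of adhesion sites, fell by 0.59 (0.034). Relative to the leukocyte markers, where the median of all genes was -0.39, Fyb differed by 0.10, Vav1 by 0.31 and Vcl by -0.98 (limma adjusted p = 0.79, 0.45 and 0.15). Relative to the endothelial markers, where that median was 0.53, Vcl differed by -0.06 and Fyb by 1.03 (limma adjusted p = 0.88 and 0.042). Vav1 was also higher on the endothelial scale (limma adjusted p = 0.006). Whether cell content accounts for these 3 changes was not tested. Fermt3, kindlin of blood cells, differed by 0.30 and Tln1, talin, by 0.09 (limma adjusted p = 0.34 and 0.67). Both were named after their values were seen. Of 11 cytokines and receptors that raise endothelial adhesion molecules, 5 were called higher and none lower (limma; 1 was called lower with array quality weights, and 8 of the 11 had an unadjusted p under 0.05), with a median of 0.44. Il1a rose 3.21-fold, Il1b 2.77-fold and Tnf 2.68-fold (limma adjusted p = 0.024, 0.044 and 0.012), and the TNF receptor Tnfrsf1b rose 1.72-fold (0.032). Il1b stood at 13.54, 13.45 and 12.55 and Tnf at 9.71, 9.65 and 9.14 in EAE replicates 1 to 3, so EAE replicate 3 was the lowest EAE pool for both. Ifng, also called, had low values of 4.32 to 4.48 in EAE and 3.89 to 4.00 in OVA. Relative to the leukocyte markers, 3 of the 10 genes called higher in these lists passed (Itgax, Spp1 and Il1a), while Tnf differed by 1.03, Il1b by 1.08, Tnfrsf1b by 0.39 and Ifng by 0.05 (limma adjusted p = 0.063, 0.11, 0.42 and 0.89). Relative to the endothelial markers, 9 of these 10 passed, all but Ifng at 0.98 (limma adjusted p = 0.068). On these 2 scales 0.452% and 3.7% of all genes were called higher, and the median of all genes was -0.39 and 0.53. The 10 genes had been called in these same samples, so passing again on the endothelial scale is not separate support. Of the 12 called genes of these lists, 0 passed in all 6 limma fits that left out 1 sample each. The counts of 2, 1, 2 and 5 higher genes became 0 in all 4 lists without EAE replicate 2 and without OVA replicate 2, and without OVA replicate 1 they became 0, 0, 0 and 1 (Tnf). Without EAE replicate 1 they were 1 (Itgax), 0, 0 and 1 (Tnf). Without EAE replicate 3 they were 1 (Itgax), 1 (Ninj1, in place of Spp1), 1 (Vav1) and 4 (all but Ifng). All 12 passed without OVA replicate 3, at differences of 2.15 for Itgax, 2.83 for Spp1, 1.53 for Tnf, 1.65 for Il1a and 1.66 for Il1b, and the counts were 3, 2, 2 and 6, with 2 lower activation genes, 1 lower adhesion partner (Jam2) and 2 higher selectin ligand genes (B4galt1 and Cd44). Each of the 2 lower calls, Itga7 and Vcl, was lost without any 1 sample other than OVA replicate 3. Calls over all genes moved likewise, from 1.72% higher and 0.666% lower with all samples. Leaving out EAE replicate 2 gave 0.132% higher, OVA replicate 2 0.165%, EAE replicate 1 0.463%, OVA replicate 1 0.545% and EAE replicate 3 1.57%. In these fits 0.00551% to 0.248% were lower. Leaving out OVA replicate 3 gave 4.68% higher and 1.91% lower. The lost and gained calls were thus not particular to these lists.

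**Figure D4:**
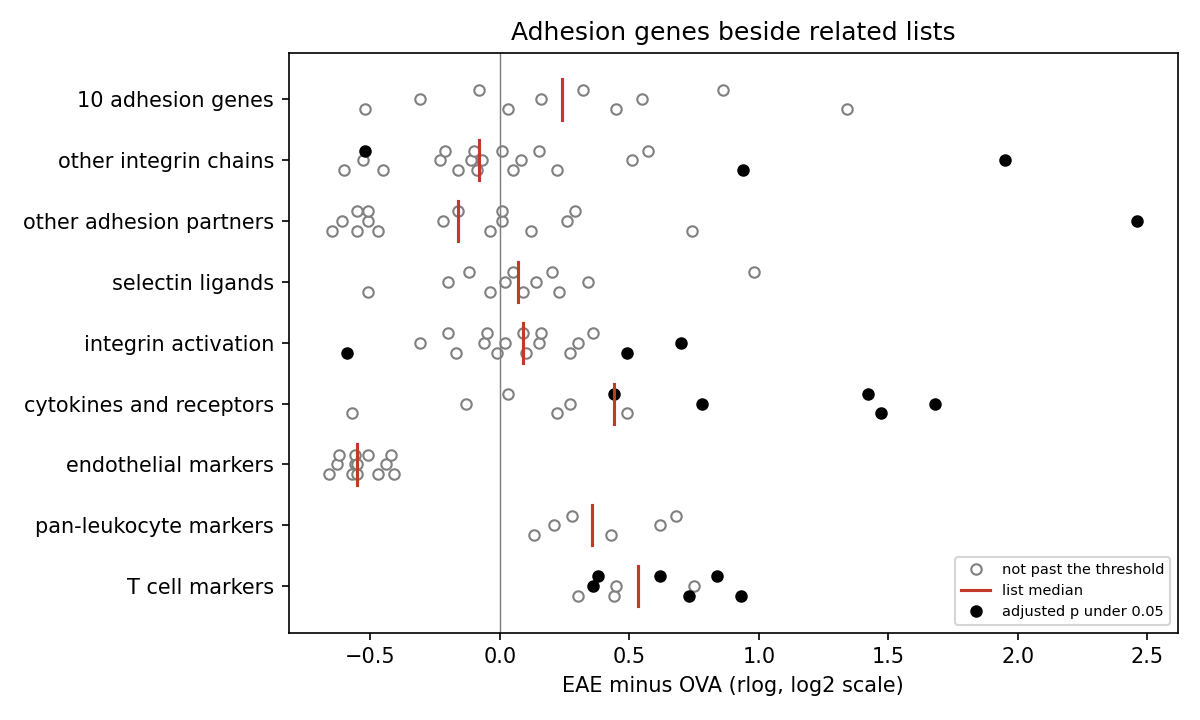
Each circle is the EAE minus OVA difference of a gene (rlog, log2 scale), filled where the limma adjusted p is under 0.05, and the red bar is the median of the list. No circle of the 10 adhesion genes is filled, at a median of 0.24, while 5 of 11 cytokines and receptors are filled and all 13 endothelial markers lie below 0.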

How the data were processed

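RNA of O4-captured mouse brain cells was measured in 3 EAE and 3 OVA samples by stranded sequencing of polyadenylated RNA, per the labels' protocols. STAR 2.6.1c, Subread 1.6.1, DESeq2 1.24.0 and the build GRCm38 are named, without their roles, per the submitters' processing notes. The deposited table holds log2 values, which its name and values mark as the authors' rlog of counts. It gives no depth. Symbols were matched for 55117 of 55298 identifiers (99.7%), without version numbers, and positions come from GENCODE M21, while the authors' own release was not stated.

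Genes with a mean rlog value of at least 3 were tested by limma 3.58.1 in R 4.3.3 (empirical Bayes with intensity trend, two-sided, Benjamini-Hochberg over 18161 genes). The test was checked on simulated data. Replicates are numbered in deposited order and pair nothing. Pools average their mice, so a p-value measures the spread between samples, not between mice. The members and lists were chosen with earlier results of these data known. All members are named. Of each related list, up to 4 called genes with the largest difference are named (Ifng was added after its value was seen), or the 2 with the smallest p, plus Icam2, Itgax, Selplg, Itgav and Madcam1, and 1 gene of this rule is not reported here. The alternatives varied the filter, the limma settings, sample weights, scaling and the samples. On the scales relative to a marker mean, the same mean was taken from every gene of a sample. Its spread is thus shared by all genes, which limma does not allow for. Protein sequences were not used here, so the planned search of integrin tails was not run.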

Additional observations from a re-analysis of the deposited data

How the results depend on the processing

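Of 17 alternatives, 12 called none of the 10 genes, as did the fit with all samples. The other 5 called members: 6 higher and 1 lower (Vcam1) with array quality weights, 2 higher with weights by number of mice (Itgb2 and Itgb7, adjusted p = 0.039 and 0.032), 3 higher relative to endothelial markers (Itgal, Itgb2 and Itgb7), 4 higher without OVA replicate 3, and the same 3 genes, 3 in number, with that sample left out and the endothelial scale together, an alternative chosen after seeing the data. The array weights gave OVA replicate 2 a weight of 8.85 and OVA replicate 3 one of 0.222 and were not fully converged, and 2858 genes were then called higher and 2233 lower. Itgb2, Itgal, Itgam and Itgb7 were above 0 in all 17. The other members changed sign in some, with Icam1 above 0 in 16, Selp in 15, Itga4 in 14, Itgb1 and Sele in 3 each and Vcam1 in 1. Over all genes, the counts higher and lower were 312 and 121 with all samples. They became 672 and 4 relative to endothelial markers, 574 and 3 without OVA replicate 3 on that scale, 82 higher relative to pan-leukocyte markers, and ranged from 24 to 850 higher and 1 to 346 lower with a sample left out. The members called with a sample left out ranged from 0 to 4 higher. Itga7 was 0.02 relative to endothelial markers and -0.91 relative to pan-leukocyte markers. The causes were not tested. No paired analysis was possible because replicate numbers follow the deposited order and name no shared animal, litter or day. The rlog shrinks low values, and with no counts the depth sets no stated limit.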
